A study of Mus musculus with 6 samples.

Results

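The genes described here are the ligands Kitl and Cxcl12, which attract migrating germ cells and keep them alive, and their receptors Kit, Cxcr4 and Ackr3. Every probe set whose annotated gene symbol was exactly one of these 5 was taken, which gave 11 of the 45101 probe sets on the array and 5 of its 18194 genes: 4 of Kitl, 2 of Kit, 3 of Cxcl12, and 1 each of Cxcr4 and Ackr3. They were measured in mouse fetuses at E10.5, counted in days of embryonic life, in the epithelium of the gonadal primordium, a thickened strip of body cavity lining that gives rise to the gonad. The samples were 3 pools labelled Emx2 KO (-/-) and 3 pools labelled wild-type (+/+), each mixing laser-dissected material of 3 fetuses of its genotype. Emx2 is a homeobox gene needed for the urogenital system. The KO allele, the litters and the sex of the fetuses are not given in the labels, so the p-values rest on how far pools of several fetuses differ.

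Primordial germ cells arise outside the gonad and travel through the hindgut and its mesentery into the urogenital ridges. Somatic cells along the route make Kit ligand, encoded by Kitl and also called stem cell factor or Steel factor, a protein made in membrane-bound and soluble forms. Its receptor Kit, a tyrosine kinase, sits on the germ cells, and also on melanoblasts and blood progenitors. Cxcl12, a chemokine also called SDF-1, is made by the ridge and the mesenchyme around it, and its receptor Cxcr4 on the germ cells couples it to directed movement. Ackr3, formerly Cxcr7, is an atypical receptor that binds Cxcl12 without the usual G protein signal and removes it from the surroundings, which in zebrafish shapes the gradient that germ cells follow. The ligands and Ackr3 are thus typical of somatic cells, and Kit and Cxcr4 of the cells that arrive.

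The only Emx2 probe set read 1678, 1479.6 and 1746 in the KO pools and 1302, 2120.4 and 1727 in the wild-type pools, in scaled intensity. Its position relative to the deleted part of the gene is not known here, so it does not check the labels. The antisense transcript Emx2os read 38.8 ± 8.88 in KO pools and 190.1 ± 34.7 in wild-type pools (SD, n = 3 each). Xist, expressed from the inactive X chromosome of females, read 9320.5 to 9888 in KO pools and 13.3 to 69.9 in wild-type pools, and the Y-linked genes Eif2s3y, Kdm5d and Uty were lower in KO pools (log2 fold changes −2.35, −2.20 and −2.13 at their brightest probe sets). Genotype and these sex markers cannot be told apart. None of the 5 genes lies on a sex chromosome: RefSeq's GRCm38.p6 table places Cxcr4 and Ackr3 on chromosome 1, Kit on 5, Cxcl12 on 6 and Kitl on 10. This placement does not separate genotype from sex for these 5 genes. Of the 13 markers of coelomic epithelium looked at, Lhx9 averaged 6262 ± 553 in KO pools and 6156 ± 498 in wild-type pools (SD, n = 3 each) and Podxl 5304 ± 234 and 5344 ± 469. These are the 2 tested markers that differed least between genotypes, and others in the list did differ, among them Nr5a1 (log2 fold change −1.22) and Upk1b (1.44). All 13 but Msln were bright enough to test. Msln lay under the dim limit, a scaled intensity of 26.4, taken as a mean over the 6 pools on the log2 scale, under which probe sets were not tested. Globin RNA of embryonic blood was bright in every pool, with Hbb-bh1 at 13421 ± 433 in KO pools and 13696 ± 718 in wild-type pools.

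Both germ cell ligands were read at high intensity in the KO epithelium as in the wild-type epithelium, and neither passed the test. The scavenging receptor Ackr3 was 1.95-fold higher in the KO pools and passed. Kit gave a low signal that did not pass, and the signal of Cxcr4 was too dim to test in either genotype. Of the 11 probe sets, 8 were bright enough to be tested, and 1 of them passed an adjusted p of 0.05 in limma's test over all 27022 tested probe sets, against 4.68% of all tested probe sets (2.75% higher and 1.93% lower in KO). With 1 passing, the share cannot be set apart from that background. In 3 of the 8 the pools did not overlap between genotypes, against 22% of all tested probe sets. The probe sets of Kit (1415900_a_at), Cxcl12 (1439084_at) and Cxcr4 (1448710_at) that were too dim were not tested. In RNA from many cells, fewer cells of a type and less RNA per cell cannot be told apart, and this holds for every gene here.

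**Figure D1:**
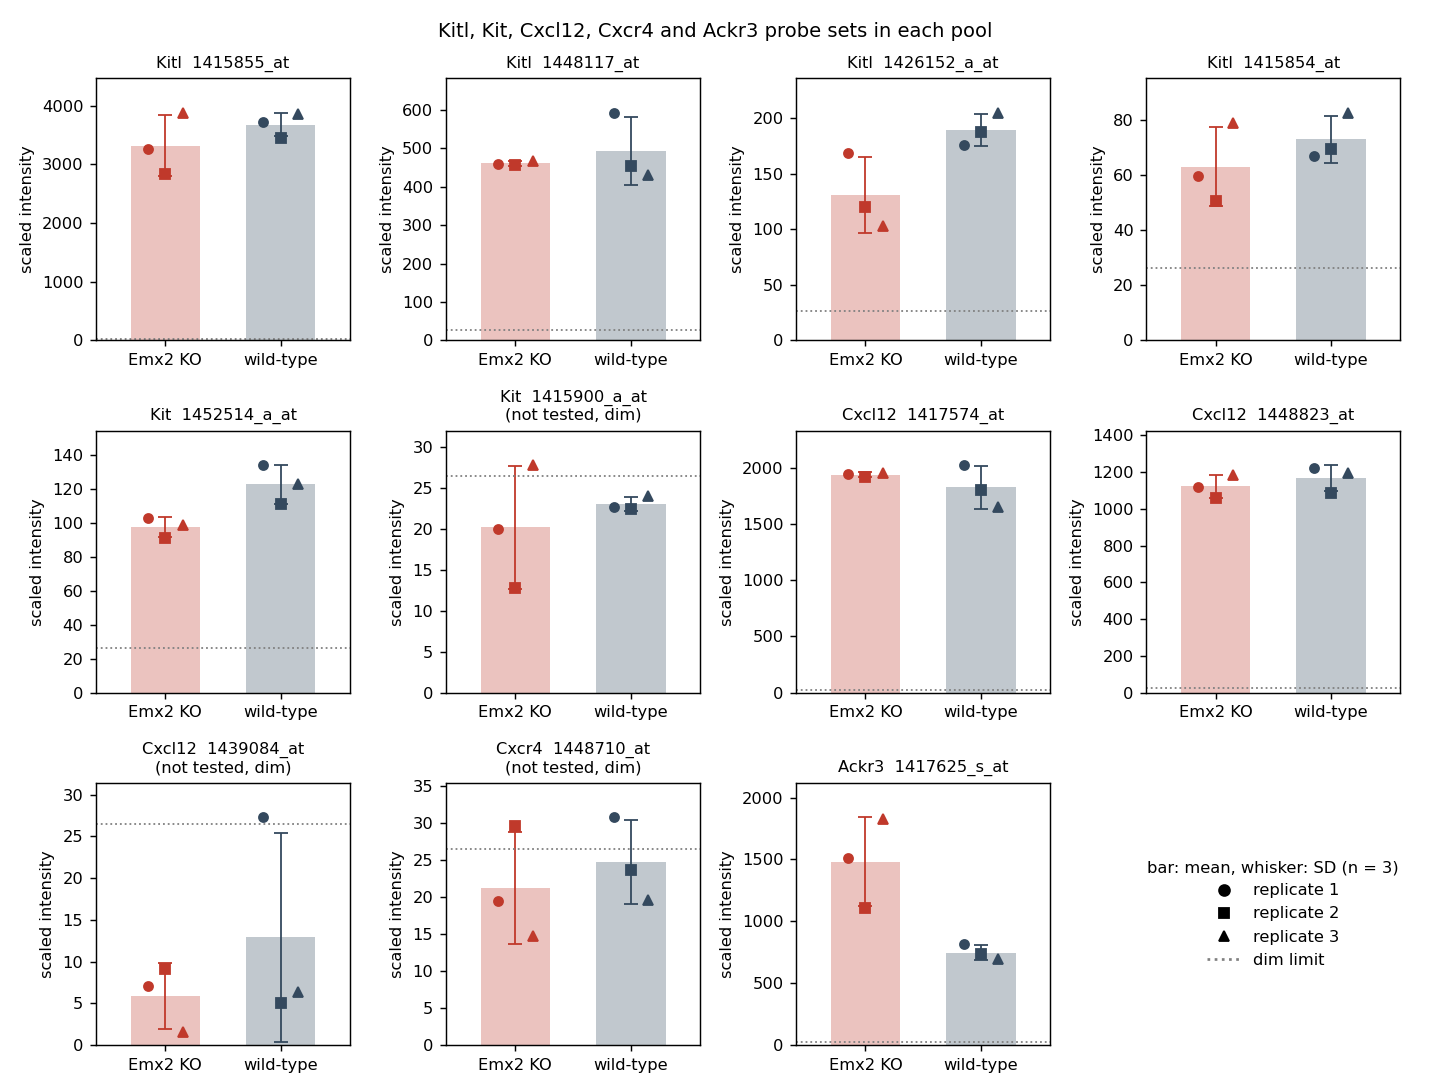
Scaled intensity (linear axis from 0) of each of the 11 probe sets in the 3 Emx2 KO pools (left) and the 3 wild-type pools (right); bars are means, whiskers the SD, symbols the replicates, and the dotted line the dim limit of 26.4. The KO pools of Ackr3, between 1107 and 1826, all lie above its wild-type pools, between 691 and 813, while the pools overlap at both tested Cxcl12 probe sets and at 3 of the 4 Kitl probe sets.

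Kitl, the Kit ligand gene, is represented by 4 probe sets, 3 of them designed on one and the same sequence record according to the annotation and the other, 1426152_a_at, on another record. The brightest, 1415855_at, read 3269, 2829 and 3870 in the KO pools against 3728, 3459 and 3857 in the wild-type pools. KO replicate 3 was the highest of the 6 pools, just above the highest wild-type pool, and KO replicate 2 was the lowest, so the groups overlapped. The means were 3323 ± 523 and 3681 ± 203 (SD, n = 3 each), a log2 fold change of −0.16 (SE 0.11, adjusted p = 0.513). Its 95% interval ran from 0.761 to 1.06 times the wild-type level, a range that includes no difference.

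The other Kitl probe sets differed in how they read the same pools. At 1448117_at the KO pools lay close together, at 459, 457 and 467, and the wild-type pools at 593, 455 and 430, with wild-type replicate 1 alone above the rest (log2 fold change −0.081, SE 0.14, adjusted p = 0.838). The sign of this small difference turned without wild-type replicate 1 (0.060) and on the values as deposited (0.011). The dimmest, 1415854_at, read 59.6, 50.8 and 79.1 in the KO pools against 66.9, 69.4 and 82.8 in the wild-type pools, and the groups overlapped (log2 fold change −0.23, SE 0.25, adjusted p = 0.709). It ordered the KO pools as 1415855_at did, with replicate 2 lowest and replicate 3 highest.

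Of the Kitl probe sets, 1426152_a_at alone gave no overlap between genotypes. It read 169, 120 and 103 in the KO pools and 176, 188 and 205 in the wild-type pools. Every KO pool was below every wild-type pool, but KO replicate 1 came close to the lowest of them, and the KO pools spread 1.64-fold against 1.16-fold in wild-type. The log2 fold change was −0.56 (SE 0.20), with an unadjusted p of 0.0165 in limma's test and an adjusted p of 0.160, which did not pass. Across the alternative settings the adjusted p ranged from 0.0715 to 0.670. Names ending in _a_at mark, by the array maker's convention, probes shared by several transcripts of one gene. Which Kitl transcripts each probe set reads was not analysed here. Of the 4 Kitl probe sets, 0 passed in limma's test and 1 had an unadjusted p under 0.05. Of all tested probe sets 17.3% had such a p, so this count cannot be set apart from that background.

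Kit, the receptor of Kit ligand, had a low signal. Probe set 1452514_a_at read 103, 91.2 and 98.9 in the KO pools against 134, 111 and 123 in the wild-type pools. All KO pools were below all wild-type pools, with KO replicate 1 and wild-type replicate 2 the nearest. The means were 97.6 ± 5.86 and 123 ± 11.4 (SD, n = 3 each), and the log2 fold change of −0.33 (SE 0.19, adjusted p = 0.419) did not pass. Its 95% interval on the log2 scale ran from −0.74 to 0.082. The second probe set, 1415900_a_at, read 19.98, 12.8 and 27.8 in the KO pools and 22.7, 22.4 and 24.0 in the wild-type pools, under the dim limit in both means.

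Cxcl12 varied little between the pools. At its brightest probe set, 1417574_at, the KO pools read 1941, 1919.8 and 1958 and the wild-type pools 2026, 1804 and 1649. The KO pools lay inside the wild-type range, and spread 1.02-fold against 1.23-fold. The KO mean was 1939.6 ± 19.2 and the wild-type mean 1826 ± 189.6 (SD, n = 3 each), with a log2 fold change of 0.092 and an SE of 0.0996 (limma, adjusted p = 0.711).

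The second tested Cxcl12 probe set, 1448823_at, read 1122, 1061.5 and 1185 in the KO pools and 1223, 1089 and 1194 in the wild-type pools. These groups overlapped as well, and the difference had the opposite sign (log2 fold change −0.058, SE 0.10, adjusted p = 0.841), turning to 0.035 on the values as deposited. The 95% intervals ran from 0.918 to 1.24 times the wild-type level at 1417574_at and from 0.821 to 1.12 times at 1448823_at, and both include no difference. The remaining probe set, 1439084_at, read 7.12, 9.09 and 1.498 in the KO pools and 27.3, 5.01 and 6.39 in the wild-type pools, with 4 of the 6 values under the intensity floor of 7.99. It carried no usable signal in either genotype.

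Cxcr4, the receptor through which Cxcl12 guides germ cells, was read by 1448710_at alone. It gave 19.4, 29.5 and 14.7 in the KO pools and 30.7, 23.6 and 19.6 in the wild-type pools, and the groups overlapped. Both means, 21.2 ± 7.58 and 24.6 ± 5.65 (SD, n = 3 each), were under the dim limit. A difference in Cxcr4 was therefore not measurable at this signal. With no probe set left out, this one gave a log2 fold change of −0.25 (SE 0.33, adjusted p = 0.838).

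Ackr3, the scavenger of Cxcl12, was the member that rose. Its single probe set, 1417625_s_at, read 1511, 1107 and 1826 in the KO pools against 813, 732 and 691 in the wild-type pools. The lowest KO pool lay above the highest wild-type pool, and the KO pools spread more, 1.65-fold against 1.18-fold. The means were 1481 ± 360.4 and 745 ± 62.3 (SD, n = 3 each), a log2 fold change of 0.96 (SE 0.16, adjusted p = 0.00341), which is 1.95-fold with an interval from 1.54 to 2.48. By p it ranked 349 of the 27022 tested probe sets, 2.75% of which passed in this direction. Leaving out 1 pool at a time, it passed in 6 of 6 fits, with log2 fold changes from 0.80 to 1.16. It did not pass when the filter on dim probe sets was dropped (adjusted p = 0.171) or when the test used no intensity trend (adjusted p = 0.0669). The ending _s_at marks probes shared by more than one transcript, which can be of different genes, and no further Ackr3 probe set was there to set beside it.

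**Figure D2:**
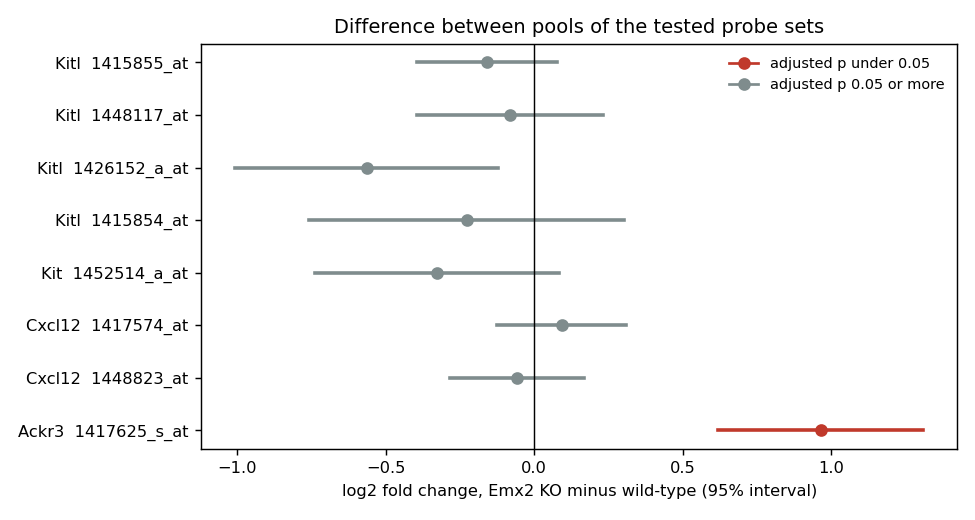
Log2 fold change, Emx2 KO minus wild-type, of the 8 tested probe sets (points) with 95% intervals from limma (lines); red marks an adjusted p under 0.05. The Ackr3 interval lies wholly above 0, at 0.62 to 1.31, the Kitl probe set 1426152_a_at lies below 0 without passing after adjustment, and the intervals of the other 6 include 0.

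The cellular machinery around these receptors was looked at through gene lists, each gene read by its brightest probe set, against a background in which 5.41% of 12315 tested genes passed (2.93% higher and 2.48% lower in KO) and the median log2 fold change was −0.014. Over all 13 lists, 29 of 139 tested genes passed. The lists were chosen with earlier results of these data known, so this share cannot be set against that background. With dim probe sets kept in the test, 5 of the listed genes passed, beside 151 of all 45037 probe sets. Of 17 tested genes that carry or restrain the Kit signal, 0 passed in limma's test (3 had an unadjusted p under 0.05) and the median was −0.037. Among all 12315 tested genes, 2238 had such an unadjusted p. The nearest were Pik3r1, the regulatory subunit of PI3 kinase, at 686 ± 55.7 in KO pools and 872 ± 37.0 in wild-type pools (log2 fold change −0.35, adjusted p = 0.119), and Socs6, an inhibitor of Kit signalling, at 307 ± 38.1 and 220.4 ± 25.6 (0.47, adjusted p = 0.134). The other tested Socs6 probe sets gave 0.62 and −0.041, that of Pik3r1 gave −0.29, and none passed. Of 3 proteases linked to release of Kit ligand from the cell surface, Adam17 alone was bright enough to test. It gave 0.16 at its brightest probe set (SE 0.13, adjusted p = 0.609). Its other tested probe sets had the opposite sign, −0.056 and −0.20, and did not pass either (limma, adjusted p = 0.903 and 0.724).

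Among 19 tested genes of the Cxcl12 axis, which holds the G proteins, arrestins and kinases that act on Cxcr4 and Ackr3, their further ligands and the small GTPases of migration, 0 rose and 1 fell, with a median of −0.015. The one that fell was Adm, adrenomedullin, a vasodilator peptide that Ackr3 also binds and removes in the mouse. Its brightest probe set, 1447839_x_at, read 84.9, 69.2 and 80.9 in the KO pools against 457, 434 and 235 in the wild-type pools. No KO pool came near the wild-type ones, and the level in wild-type was 4.61 times that in KO (log2 fold change −2.21, SE 0.24, adjusted p = 0.000183). The second Adm probe set, 1416077_at, fell too, to 21.2 ± 3.84 in the KO pools against 58.3 ± 17.2 in the wild-type pools (log2 fold change −1.44, SE 0.32, adjusted p = 0.0206), the KO mean being under the dim limit. Adm passed with each pool left out in turn, in 6 of 6 fits, but not with the dim probe sets kept in (adjusted p = 0.0879).

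The arrestins and G protein subunits that act at these receptors gave small differences. Arrb2, an arrestin that Ackr3 recruits, gave −0.14 (SE 0.16, adjusted p = 0.725) and Gnai2, the inhibitory G protein subunit used by Cxcr4, gave 0.051 (SE 0.097, adjusted p = 0.849). Dock2, an activator of Rac in white blood cells, was next by p at 0.77 (SE 0.36, adjusted p = 0.297). Its wild-type mean was under the dim limit, and its other tested probe set gave −0.022. Dpp4, the peptidase that trims Cxcl12, was too dim to test, at 13.7 ± 9.25 in KO and 32.6 ± 7.10 in wild-type pools.

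Most other chemokines and chemokine receptors were dim. Of 51 on the array, 36 were under the dim limit in both genotypes and 13 were tested, of which 0 passed in limma's test and 1 had an unadjusted p under 0.05. Among all 12315 tested genes, 2238 had such an unadjusted p. Ccl27a, a chemokine of skin, was clearly read, at 515 ± 44.9 in KO pools and 499.7 ± 70.04 in wild-type pools (log2 fold change 0.048, adjusted p = 0.906). The one with the low unadjusted p was Ackr1, the chemokine-binding receptor of red cells and venules, with 187, 103 and 113 in KO pools and 75.7, 75.6 and 94.7 in wild-type pools (log2 fold change 0.67, adjusted p = 0.169). Cx3cl1, a membrane-bound chemokine, followed at −0.67 (adjusted p = 0.301). Cxcl11, the further chemokine ligand of Ackr3, was under the dim limit at 18.1 ± 15.1 and 15.5 ± 17.2.

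Relatives of Kit and other signals of the germ cell route changed in part. Of 8 tested members of the receptor class that holds Kit, with their ligands, 2 rose and 0 fell (median 0.081). Pdgfrb, the platelet-derived growth factor receptor of mesenchyme, read 1199.8 ± 44.9 in KO and 667 ± 64.1 in wild-type pools (log2 fold change 0.85, adjusted p = 0.000786). Csf1r, the receptor of macrophages, read 331 ± 49.9 and 172 ± 44.3 (0.96, adjusted p = 0.0126), and did not pass without KO replicate 2 (0.84, adjusted p = 0.0659). A second Csf1r probe set did not pass (1.03, adjusted p = 0.0556), and another, dimmer one gave −0.37 (adjusted p = 0.702).

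Of 15 tested genes for other secreted, receptor and adhesion proteins linked to germ cells in the mouse, 2 rose, 1 fell and 12 did not pass (median 0.094). Bmp4, needed for germ cell formation and survival, read 726, 703 and 702 in the KO pools and 433, 378 and 426 in the wild-type pools, with no overlap (log2 fold change 0.79, SE 0.12, adjusted p = 0.00221). Fn1, the matrix protein fibronectin, rose by 0.53 (SE 0.099, adjusted p = 0.00746), and by 1.55 at its second tested probe set (adjusted p = 0.000223). Bmp7 fell, to 80.5 ± 14.6 in KO pools against 146 ± 19.8 in wild-type pools (−0.87, SE 0.21, adjusted p = 0.0324), but passed in 2 of 6 fits with a pool left out, those without KO replicate 3 or wild-type replicate 2, and its second tested probe set did not pass (−0.40, adjusted p = 0.422).

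**Figure D3:**
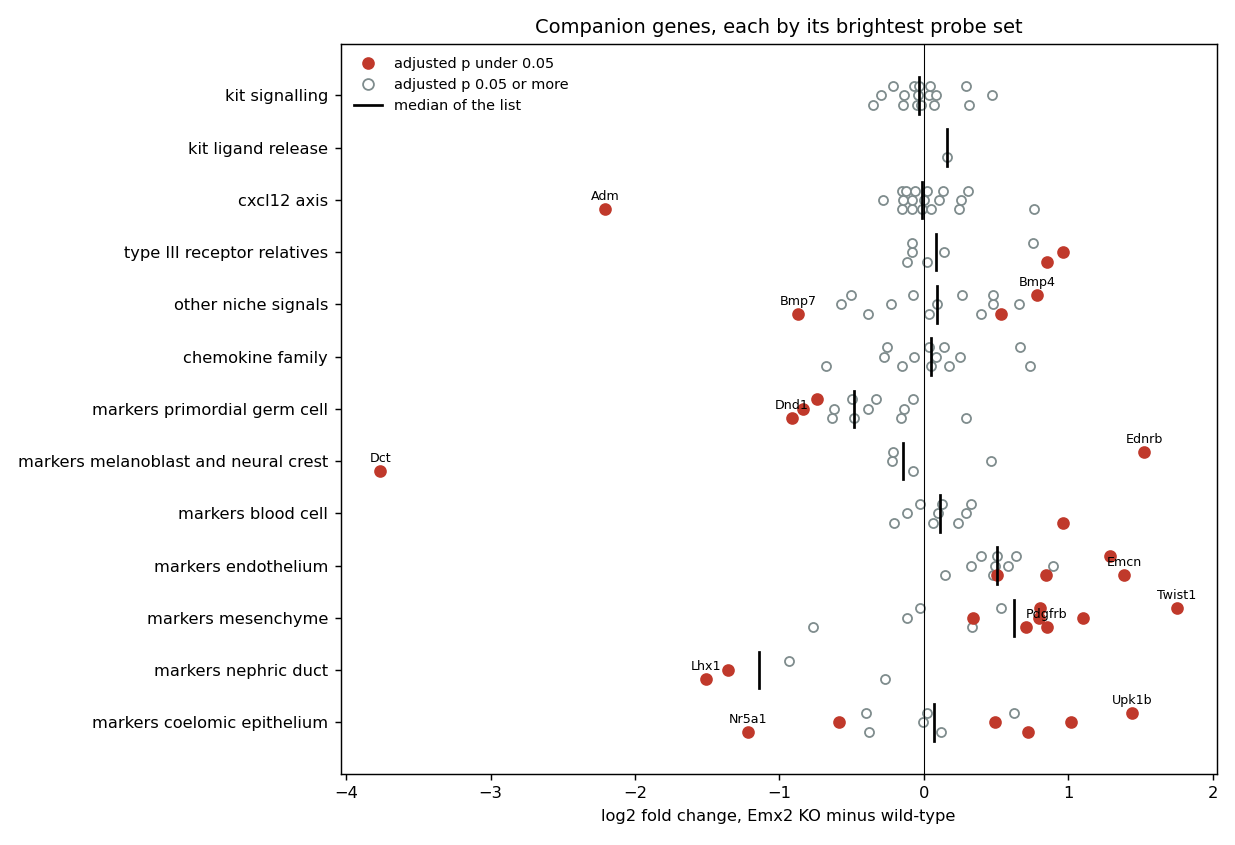
Log2 fold change, Emx2 KO minus wild-type (horizontal axis), of each tested gene in the companion and marker lists at its brightest probe set; filled red points have an adjusted p under 0.05 and vertical bars are list medians. Adm, at −2.21, stands apart in the Cxcl12 axis, while the medians of the signalling lists lie near 0 and those of the endothelium and mesenchyme markers at 0.51 and 0.62.

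The cell types that could carry these genes were followed through marker lists, and their part in the results above was not tested. Of 13 tested germ cell markers 0 rose and 3 fell, with a median of −0.48, and the summed intensity of the 16 markers on the array was 2323 to 3279 in KO pools and 3401 to 3689.9 in wild-type pools. Without Dppa5a, the sum of the other 15 was 1749 to 2573 in KO pools and 2287 to 2517 in wild-type pools, and the groups overlapped. Dppa5a, a gene of pluripotent and germ cells, read 611, 706 and 547 in the KO pools and 1253, 1217 and 884 in the wild-type pools. No KO pool reached the wild-type range (log2 fold change −0.84, SE 0.15, adjusted p = 0.00588). Dppa3, also called Stella, fell to 146 ± 28.9 in KO pools against 242 ± 26.3 in wild-type pools (−0.74, adjusted p = 0.0398). Dnd1, an RNA-binding protein needed for germ cell survival, fell to 50.8 ± 8.11 against 95.1 ± 4.10 (−0.92, adjusted p = 0.0366). With 1 pool left out in turn, Dppa5a passed in 6 of 6 fits, Dppa3 in 2 (without KO replicate 2 or wild-type replicate 3) and Dnd1 in 0 (adjusted p from 0.0549 to 0.142). Pou5f1, which read 54.0 ± 9.40 in KO pools and 83.5 ± 16.4 in wild-type pools, did not pass. Lin28a alone among the tested markers leaned the other way, at 468 ± 65.7 in KO pools and 386 ± 86.8 in wild-type pools. It did not pass (0.29, limma, adjusted p = 0.436), nor did Sox2 (−0.14) and Prdm14 (−0.074), which had small differences. The markers Dazl and Mael were under the dim limit in both genotypes. Of the receptors carried by germ cells, Kit did not pass in these pools (−0.33, limma, adjusted p = 0.419) and Cxcr4 was too dim to test. Whether either followed the germ cell markers was not tested.

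Ackr3 rose in pools that also had more signal of mesenchyme and endothelium markers. Ackr3 can be expressed in both cell types, and whether they were the source of its higher signal was not tested. Of 12 tested mesenchyme markers 7 rose and 0 fell (median 0.62), and the sum over the list was 21129.5 to 22115 in KO pools against 14448 to 16246 in wild-type pools. Twist1, a transcription factor of mesenchyme, rose by 1.75 (SE 0.13, adjusted p = 1.25e-05), Postn, a matrix protein, by 1.10 (SE 0.14), Pdgfrb by 0.85, Prrx1 by 0.81 (SE 0.20), and Dcn, the proteoglycan decorin, by 0.80 (SE 0.14). Not all of the list moved that way: Foxf1, a forkhead factor of visceral mesoderm, read 53.2 ± 12.9 in KO pools and 90.9 ± 23.9 in wild-type pools with no overlap (log2 fold change −0.77, adjusted p = 0.161), Pdgfra gave −0.11 (adjusted p = 0.617) and Lum −0.026 (adjusted p = 0.985). Of 13 tested endothelial markers 4 rose and 0 fell (median 0.51), and the sum was 2379.6 to 2804 in KO pools against 1418 to 1931 in wild-type pools. Emcn rose by 1.39 (SE 0.33), Tek, the angiopoietin receptor, by 1.29 (SE 0.24), Cldn5 by 0.85 (SE 0.22) and Egfl7 by 0.51 (SE 0.13). The wild-type mean of Emcn, 22.0, was under the dim limit. The other tested Egfl7 probe sets gave 0.33, 0.19 and 0.015 and did not pass (limma, adjusted p from 0.174 to 0.981). In fits with 1 pool left out, Tek passed in 6 of 6, Emcn in 2 (without KO replicate 2 or wild-type replicate 3), Cldn5 in 2 (without KO replicate 3 or wild-type replicate 2) and Egfl7 in 1 (without wild-type replicate 1). Of the mesenchyme markers, Prrx1 passed in 1 of those 6 fits and Col3a1, which rose by 0.34, in 4. The mesenchyme list kept 5 to 7 passing genes in them. Pecam1 and Tie1, which define endothelium, were under the dim limit in both genotypes. With any 1 gene left out, the groups still did not overlap in either sum.

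Melanoblasts and blood progenitors also carry Kit. Of 6 tested melanoblast and neural crest markers 1 rose and 1 fell (median −0.15). Dct, an enzyme of melanin synthesis, read 42.1, 8.11 and 21.3 in KO pools and 258, 313 and 226 in wild-type pools (log2 fold change −3.76, SE 0.45, adjusted p = 0.000358), and Ednrb, the endothelin receptor, rose by 1.53 (SE 0.24, adjusted p = 0.00231), while its second tested probe set did not pass (0.32, adjusted p = 0.653). The KO mean of Dct, 23.8, was under the dim limit. The melanoblast markers Tyr, Tyrp1 and Mlana and the neural crest factor Foxd3 were under the dim limit in both genotypes. The list summed to 414 to 489 in KO pools and 555 to 687 in wild-type pools. Without Dct the direction of the sum turned: the other 9 genes summed to 406 to 447 in KO pools and 329 to 378 in wild-type pools, with no overlap. Ednrb alone of these passed, at 141 ± 27.0 in KO pools and 48.8 ± 8.96 in wild-type pools. Among the other tested genes Pmel leaned higher (0.47) and Erbb3 (−0.22), Sox10 (−0.22) and Mitf (−0.078) leaned lower, and none passed. A sum without both Dct and Ednrb was not taken. Of 10 tested blood cell markers Csf1r alone rose and 0 fell (median 0.11), with sums of 36103 to 37573 in KO pools and 35884 to 37654 in wild-type pools. Embryonic globin RNA made up most of these sums, with KO means of 13421 for Hbb-bh1, 13095 for Hbb-y and 9067 for Hba-x. Without Hbb-y, the others summed to 23206 to 24011 in KO pools and 20927 to 23201 in wild-type pools, with no overlap. Hba-x, an embryonic globin, was next by p (0.24, adjusted p = 0.110).

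Of 4 tested markers of the nephric duct, a neighbour of the ridge, 0 rose and 2 fell (median −1.14), Lhx1 with a log2 fold change of −1.51 (SE 0.30) and Pax8 with one of −1.36 (SE 0.29), with sums of 269.9 to 295 in KO pools and 461 to 508 in wild-type pools. Ret was under the dim limit, and so was the KO mean of Lhx1 (20.7). Lhx1 did not pass without wild-type replicate 1 (−1.33, adjusted p = 0.0695), nor Pax8 without wild-type replicate 1, wild-type replicate 2 or KO replicate 3 (adjusted p from 0.0590 to 0.0652). Of 12 tested coelomic epithelium markers 4 rose and 2 fell (median 0.071), with sums of 24608 to 27250 in KO pools and 25279 to 27492 in wild-type pools. Upk1b, a uroplakin of the mesothelial surface, rose by 1.44 (SE 0.15) and Nr5a1, the nuclear receptor of the gonadal and adrenal primordium, fell by 1.22 (SE 0.15). Krt19 rose by 1.02 (SE 0.18) and Lrrn4 by 0.72 (SE 0.12).

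**Figure D4:**
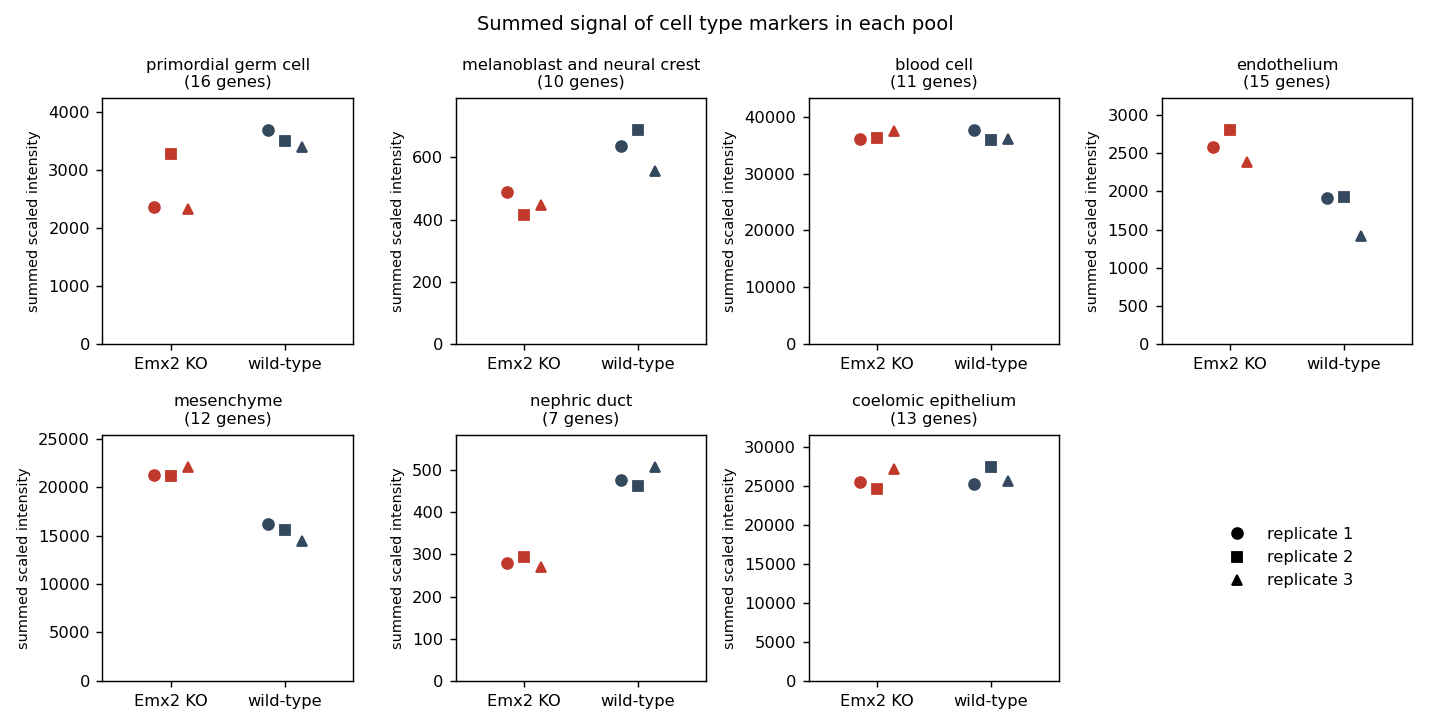
Summed scaled intensity (linear axes from 0) over the brightest probe set of each marker gene, for 7 cell types, in each Emx2 KO pool (left) and each wild-type pool (right). The groups do not overlap for germ cell, melanoblast and nephric duct markers (lower in KO) or for endothelium and mesenchyme markers (higher in KO), and they overlap for blood cell and coelomic epithelium markers. Without Dct the melanoblast sum is higher in KO, and Ednrb is the only gene left in it that passed. Without Dppa5a the germ cell sums overlap, and without Hbb-y the blood cell sums are higher in KO with no overlap.

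Genes whose log2 intensity followed each member most closely over the 6 pools were found by Pearson correlation with its brightest probe set among 12311 other genes, as a description. Ackr3 was followed most closely by Tagln2, an actin-binding protein (r = 0.998), Hoxd8, a Hox transcription factor (r = 0.989), and Pappa, a protease that cleaves IGF binding proteins (r = 0.987). Of these Pappa passed the test between genotypes (log2 fold change 0.74, adjusted p = 0.00775), whereas Tagln2 (0.52, adjusted p = 0.0709) and Hoxd8 (0.32, adjusted p = 0.0850) did not. These genes were picked for following Ackr3, which itself differed between genotypes, so their tests are no separate support. A correlation over 0.9 with Ackr3 was met by 1.96% of the genes.

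For Kitl the closest were Mtdh (r = 0.996), Ces5a (r = 0.987) and Psenen (r = 0.985), and 0.918% of genes had a correlation over 0.9. None of these 3 passed between genotypes. For Kit they were Dbi (r = 0.995), Ubqln2 (r = 0.993) and Vps26a (r = 0.989), with 1.97% over 0.9. Ubqln2 fell in KO (−0.78, adjusted p = 0.00629), and the other 2 did not pass. For Cxcl12 they were Ppp1r36 (r = 0.986), Emid1 (r = 0.980) and Dop1b (r = 0.977), with 0.585% over 0.9, and none of them passed. All points of a correlation share the same 6 pools, and none was tested. The genes were picked on these pools of both genotypes, so whether they passed between genotypes is no separate support.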

How the data were processed

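Pools were compared on 6 single-channel arrays. Per the labels' protocols, frozen fetuses were cut at 30 µm, GATA4 staining of some sections located the primordium, and 15 ng of total RNA per pool was amplified over 2 cycles. The deposited values are linear intensities, 1 per probe set. The submitters' processing notes name GCOS 1.2, and its settings are not given in the sources used here. Deposited array medians ran from 40.6 to 63.6.

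Each array was scaled to a common 2% trimmed mean (309), values under the 20th percentile (7.99) were raised to that level before taking log2. After removing 64 controls and the dimmest 40%, 27022 probe sets were tested with limma 3.58.1 in R 4.3.3 (intensity trend, two-sided, Benjamini-Hochberg, threshold 0.05). Symbols came from the platform annotation, and all 11 probe sets matched a RefSeq gene identifier. Means and SDs are of scaled intensities, differences in log2 intensity are KO less wild-type, and intervals are limma's unadjusted 95% intervals. The number of arrays limits the precision: the median SE was 0.19 on the log2 scale.

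The genes and lists were chosen with earlier results of these data known. In 13 lists, up to 4 passing genes by size, filled to 2 by p, were named, with further markers, further probe sets and the dim genes chosen after their values were seen. For each gene, the 3 most correlated genes were named. The procedure was tested on simulated data. Same-numbered pools were checked for pairing: deviations from the group means correlated at −0.07, 0.04 and −0.05. Pools of different numbers gave −0.08 to 0.13. This showed no sign of pairing by number but cannot exclude it, since deviations within 3 pools constrain one another. The alternatives tried were other scalings, floors, filters, variance settings, the replicate block, an adjusted p threshold of 0.1, the mean over a gene's probe sets, and each pool left out. Marker sums with each gene left out in turn were added after seeing the data.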

Additional observations from a re-analysis of the deposited data

How the results depend on the processing

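The brightest probe sets of Kitl, Kit and Cxcl12 kept their direction and did not pass in 17 of 17 alternatives each. Ackr3 kept its direction in 17 and passed in 15, with log2 fold changes from 0.80 to 1.16. With no filter on dim probe sets, Ackr3 gave 0.96 (adjusted p = 0.171). Then 0 probe sets of the 5 genes, 151 of all probe sets and 5 genes of the lists passed, against 1, 1264 and 29. With no intensity trend Ackr3 gave 0.96 (adjusted p = 0.0669), and the counts were 0, 541 and 14. In both the fold is the same and the p differs. At an adjusted p threshold of 0.1, 1939 of all probe sets passed. With each pool left out, 721 to 1687 passed: 721 without wild-type replicate 1, and 815, 834 and 790 without KO replicates 1, 2 and 3. The 5 genes kept 1 passing probe set in each of those fits. With the replicate block, Ackr3 gave 0.96 (adjusted p = 0.00408) and 1160 of all probe sets passed. On the values as deposited, where the median of all tested probe sets was 0.098, 267 passed lower in KO, against 522. Signs turned only for differences that had not passed. On the values as deposited they were those of Kitl 1448117_at (0.011), Cxcl12 1448823_at (0.035), Dbi (0.021), Emx2 (0.047) and Mtdh (0.017), and under quantile normalization that of Dbi (0.00015). With 1 pool left out, Kitl 1448117_at ranged from −0.17 to 0.060 (highest without wild-type replicate 1), Emx2 from −0.23 to 0.12 (above 0 without wild-type replicate 2 or KO replicate 2) and Ppp1r36 from −0.049 to 0.62 (lowest without wild-type replicate 3). Dim signal limits what can be said of Cxcr4, and of Kit and Cxcl12 at their dimmest probe sets.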
